A study of Mus musculus with 96 samples.

Results

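The glutamate receptor and postsynaptic scaffold genes are 35 genes of the excitatory synapse: the AMPA (Gria1 to Gria4), kainate (Grik1 to Grik5), NMDA (Grin1, Grin2a to Grin2d, Grin3a and Grin3b) and delta (Grid1) receptor subunits, the metabotropic receptors Grm2 to Grm8, and the scaffold genes Dlg1 to Dlg4, Dlgap1, Shank1 to Shank3 and Homer1 to Homer3. Members were chosen by gene name, and each consensus peak that the authors' annotation assigned to a member was taken, which gave 79 of 22815 peaks, at 34 of the 35 genes. The peaks come from ChIP-seq of H3K4me3, H3K27me3 and Suz12 in hippocampal nuclei of 6-month-old male C57BL/6N mice, sorted for the neuronal nuclear protein NeuN. The fractions were NeuN+ (neurons) and NeuN- (other cells). Mice lacked Ogg1 (Ogg1-/-), Mutyh (Mutyh-/-) or both genes (Ogg1-/- Mutyh-/-, DKO), or were wild type (WT), with 3 replicates each, so that each of the 6 tables (a mark in a fraction) held 12 libraries and 72 libraries were used of 96 samples. WT mice of the same background were the controls, the DKO was bred from the single knockouts, and each replicate was a pool of hippocampi from several mice of 1 genotype. Since the libraries are bulk samples of many nuclei, fewer nuclei with a mark and less mark per nucleus cannot be told apart.

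Glutamate opens AMPA and kainate receptors for fast transmission, whereas NMDA receptors pass calcium and are needed for many forms of hippocampal plasticity. Metabotropic receptors act through G proteins, and the Dlg, Dlgap, Shank and Homer proteins stack into the postsynaptic density that holds the receptors at the synapse. H3K4me3 marks the starts of active genes, H3K27me3 is set by Polycomb repressive complex 2 (PRC2) at repressed developmental genes, and Suz12 is a core PRC2 subunit. OGG1 removes 8-oxoguanine from DNA and MUTYH removes adenine paired with it. The comparisons ask whether loss of either glycosylase, or of both, is accompanied by a change of these marks.

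The values are signal, that is reads in a 401 bp window scaled by the authors with 1 factor for each library, so levels can be compared between genes within a table and not between tables. A NeuN+ library held 96023 to 548706 reads in peaks for H3K4me3, but 23794 to 52344 for H3K27me3 and 6652 to 33035 for Suz12. In NeuN- the histone mark libraries held 39320 to 120004 (H3K4me3) and 19132 to 78250 (H3K27me3). A single repeat peak, chr2:98666960-98667360, took between 20.6% and 73.0% of the reads of an H3K27me3 NeuN- library and between 0% and 46.9% in H3K27me3 NeuN+. It took 25.4% to 59.3% in H3K4me3 NeuN-, 7.23% to 45.8% in Suz12 NeuN+ and at most 4.02% in H3K4me3 NeuN+. Of 11 neuronal marker genes, 10 had an H3K4me3 peak in NeuN+ and 0 in NeuN-. Astrocyte markers had 2 of 6 in NeuN+ (Fgfr3 and Slc1a3) and 1 of 6 in NeuN- (Fgfr3), oligodendrocyte markers 1 of 9 in each (Mbp and Olig1), and microglial and vascular markers 0 in both, so most defining markers of the NeuN- cell types had no peak there. The only peak at a targeted gene was the Ogg1 promoter, H3K4me3 NeuN+, with a signal of 15.4, 5.85 and 10.8 in WT, 17.9, 6.16 and 13.8 in Ogg1-/- and 0, 14.5 and 5.31 in DKO. The groups overlapped, so this peak does not check the deletion. Mutyh had no peak.

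In NeuN+ nuclei, H3K4me3 was found at 34 of the 35 genes, in 50 peaks, the exception being Grin3b, an NMDA receptor subunit gene. The authors' annotation placed 43 of these at promoters, 4 in introns, 2 in exons and 1 distal to the gene. H3K4me3 in NeuN- was found at 6 genes (Homer1, Dlg1, Grm4, Gria2, Grm3 and Grm7). H3K27me3 was found at 5 genes in NeuN+ (8 peaks) and at 7 in NeuN- (14 peaks). Suz12 had 1 peak in NeuN+, at Grin2c, and none in NeuN-.

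**Figure D1:**
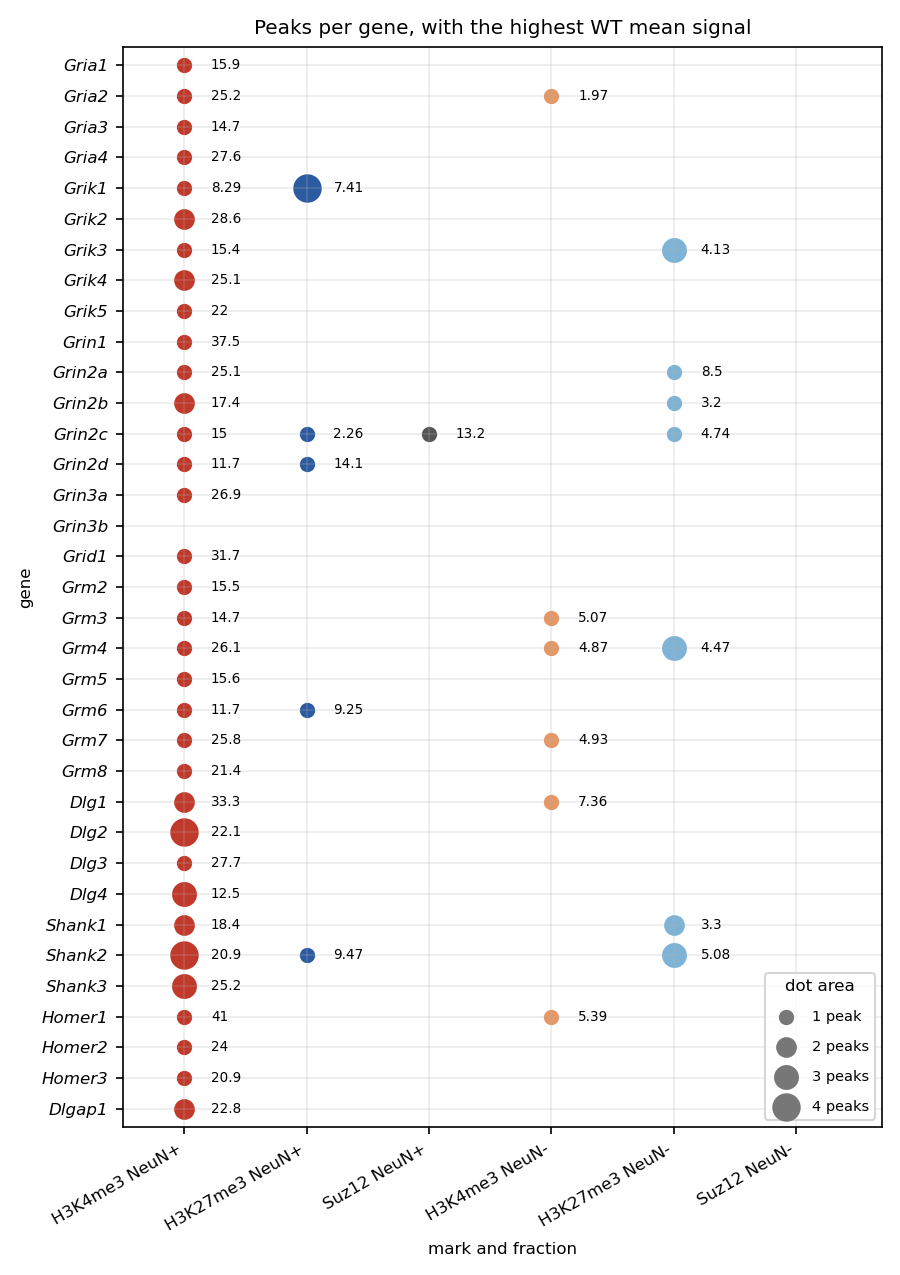
Peaks of the 35 genes (rows) in the 6 tables (columns); the area of a dot is the number of peaks, and the number beside it is the highest WT mean signal among them. H3K4me3 NeuN+ fills 34 of 35 rows, and H3K27me3 is present in 10 rows, of which Grin2c and Shank2 have it in both fractions.

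Several genes had more than 1 H3K4me3 peak in NeuN+. Dlg2 and Shank2 had 4 each, Dlg4 and Shank3 3 each, and Grik2, Grik4, Grin2b, Dlg1, Dlgap1 and Shank1 2 each. That is 10 of 34 members (29.4%), against 8.08% of the 11512 genes with such a peak, a description with no test. The members are long genes, with a median span of 212 kb against 28.4 kb for genes with a H3K4me3 NeuN+ peak, and 22 of 35 span over 100 kb (62.9% against 17.4%). With the predicted transcript models of RefSeq included, 45 of the 50 peak centres lay within 3000 bp of a transcript start of their gene, and 38 of 50 with curated models only.

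The member promoters held fewer CpG dinucleotides than other H3K4me3 promoters. The median was 24 CpG in 401 bp over the 43 member promoter peaks and 35 over all 11771 promoter peaks, and GC content was 63.6% against 67.1%. Members ranged from 0 CpG, at the Dlgap1 peak at chr17:70522840-70523240, to 67 at a Shank3 promoter, chr15:89523873-89524273. The stretches below lie inside member peaks but outside all annotated exons, are read from GRCm38 on the strand of the gene, and carry each CpG in capitals. Grin1 is shown for its high H3K4me3, and Shank2 because it carried H3K4me3 in NeuN+ and H3K27me3 in NeuN-. The Shank2 stretch is from the H3K4me3 peak, and only its first 119 bases, to chr7:144239212, also lie in the H3K27me3 peak. Dlg4 (an H3K4me3 peak that was a DER against WT, as defined with the knockout comparisons) and Grm4 (an H3K27me3 promoter of NeuN-) were added after their values were seen. For Homer1, Grm6, the Shank1 promoter at chr7:44336132-44336532 and the Shank2 peak at chr7:143978446-143978846, no stretch of at least 60 bases outside exons was in the peak, and none is shown.
Grin1, chr2:25318460-25318628, minus strand: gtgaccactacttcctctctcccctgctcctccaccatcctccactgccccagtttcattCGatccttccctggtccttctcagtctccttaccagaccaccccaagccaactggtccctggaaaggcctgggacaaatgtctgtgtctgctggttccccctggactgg
Shank2, chr7:144239094-144239386, plus strand: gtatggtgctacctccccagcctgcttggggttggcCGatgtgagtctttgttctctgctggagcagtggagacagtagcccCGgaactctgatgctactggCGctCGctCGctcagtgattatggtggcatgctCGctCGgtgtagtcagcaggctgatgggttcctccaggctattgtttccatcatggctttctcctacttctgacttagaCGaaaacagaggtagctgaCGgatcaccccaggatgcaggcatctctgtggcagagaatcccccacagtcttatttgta
Dlg4, chr11:70024124-70024320, plus strand: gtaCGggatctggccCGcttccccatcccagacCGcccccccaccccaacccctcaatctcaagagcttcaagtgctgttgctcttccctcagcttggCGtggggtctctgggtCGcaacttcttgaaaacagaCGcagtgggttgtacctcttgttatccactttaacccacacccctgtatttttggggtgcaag
Grm4, chr17:27512233-27512532, minus strand: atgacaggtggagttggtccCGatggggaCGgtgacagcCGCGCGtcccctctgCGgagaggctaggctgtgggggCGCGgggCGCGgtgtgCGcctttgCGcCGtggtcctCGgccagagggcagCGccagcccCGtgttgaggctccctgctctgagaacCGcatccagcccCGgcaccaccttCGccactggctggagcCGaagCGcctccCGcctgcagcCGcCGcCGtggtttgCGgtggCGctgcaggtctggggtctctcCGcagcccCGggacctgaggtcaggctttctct
The Grm4 stretch holds 29 CpG in 300 bases, the Shank2 stretch 9 in 293, the Dlg4 stretch 6 in 197 and the Grin1 stretch 1 in 169. These counts leave out exons and do not stand for the peaks. The whole 401 bp peaks hold 34 CpG at Grm4, 12 at Shank2, 24 at Dlg4 and 18 at Grin1.

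H3K4me3 levels in WT NeuN+ were spread from 2.14 to 41.0, with a median of 17.9 over the 50 member peaks and 23.4 over all peaks of the table. The median member peak stood at the 29.6th percentile, 22 peaks were below the 25th percentile and 4 above the 75th. Those 4 were Homer1, Grin1, a Dlg1 promoter and Grid1. In the ordered list, none of the 49 neighbouring pairs was apart by more than both SDs. Sorting puts close means side by side, so this only warns against reading the order of neighbours. Promoter peaks had a median of 20.7 and intron peaks of 13.4.

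Homer1, whose product links metabotropic receptors to Shank and to calcium stores, had the highest level, 41.0 ± 6.01 (SD, n = 3), at the 98.6th percentile of all peaks. Its promoter peak at chr13:93304198-93304598, over the 5′ UTR, read 43.7, 34.1 and 45.2 in WT. Homer2 had 24.04 ± 6.66 and Homer3 20.9 ± 5.76, so the ranges of the WT libraries of Homer1 (from 34.1) did not meet those of Homer2 (up to 30.9) or Homer3 (up to 26.9).

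Grin1, the obligatory NMDA receptor subunit, came second, with 37.5 ± 13.6 (SD, n = 3) at chr2:25318460-25318860, over an exon and intron of the gene. The WT libraries read 38.6, 23.4 and 50.6, and the lowest of them was under the highest WT library of Grin2a, Grin2b and Grin3a. Grin3a, a subunit that lowers calcium flow, had 26.9 ± 11.1, Grin2a 25.1 ± 8.30 and Grin2b 17.4 ± 6.13 at the promoter and 2.43 ± 2.58 in an intron 10034 bp from the start. Grin2a and Grin2b encode the main glutamate-binding subunits of forebrain. Grin2d had 11.7 ± 8.25, and Grin2c, a subunit best known from cerebellum, had 15.0 ± 5.42 in an exon 14891 bp from its start with no H3K4me3 peak at the promoter.

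Among AMPA receptor subunits, Gria4 (27.6 ± 6.00) and Gria2 (25.2 ± 6.01), the subunit that blocks calcium entry, had higher WT means than Gria1 (15.9 ± 5.54) and Gria3 (14.7 ± 4.32). The WT libraries of Gria4 (21.5 to 33.4) lay above those of Gria1 (up to 20.6) and Gria3 (up to 19.3), while Gria2 (18.5 to 30.1) overlapped all of them. Among kainate receptor subunits, Grik2 had 28.6 ± 5.22 and 17.1 ± 2.33 at its 2 promoters, Grik4 25.1 ± 13.4 at its promoter and 14.4 ± 2.45 in an intron, and Grik5 22.0 ± 8.62. Grik3 (15.4 ± 4.43) and Grik1 (8.29 ± 4.84), the 2 kainate genes with H3K27me3, had the lowest promoter means of this family. The delta receptor gene Grid1 had 31.7 ± 13.4.

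Metabotropic receptors had a median of 15.6 over 7 promoter peaks. Grm4 (26.1 ± 0.847), Grm7 (25.8 ± 6.45) and Grm8 (21.4 ± 11.7), presynaptic receptors of group III, were followed by Grm5 (15.6 ± 8.57), Grm2 (15.5 ± 5.81) and Grm3 (14.7 ± 9.53). Grm6, known as the receptor of retinal ON bipolar cells, was lowest of the family with 11.7 ± 6.01.

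The Dlg and Dlgap scaffolds were widely spread. The Dlg1 (SAP97) promoter at chr16:31664075-31664475 had 33.3 ± 7.99 (SD, n = 3), and Dlg3 (SAP102) 27.7 ± 11.1. Dlg4, which encodes PSD-95, the main scaffold of the postsynaptic density, had 12.5 ± 1.69, 10.7 ± 2.10 and 2.14 ± 3.71 at its 3 promoter peaks. The last, at chr11:70027467-70027867, was the lowest member peak, with reads in 1 of 3 WT libraries (6.43). Dlg2 (PSD-93) had 12.7 to 22.1 at 4 peaks, and Dlgap1, which joins Dlg to Shank, 22.8 ± 10.8 and 6.26 ± 6.47. Shank3, the scaffold gene lost in Phelan-McDermid syndrome, had 25.2 ± 7.32, 19.6 ± 7.39 and 17.2 ± 0.957 at its 3 promoters. Shank1 had 18.4 ± 2.66 and 15.2 ± 4.65, and Shank2 20.9 ± 4.37, 20.7 ± 6.14, 12.5 ± 5.75 and 8.95 ± 7.78.

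**Figure D2:**
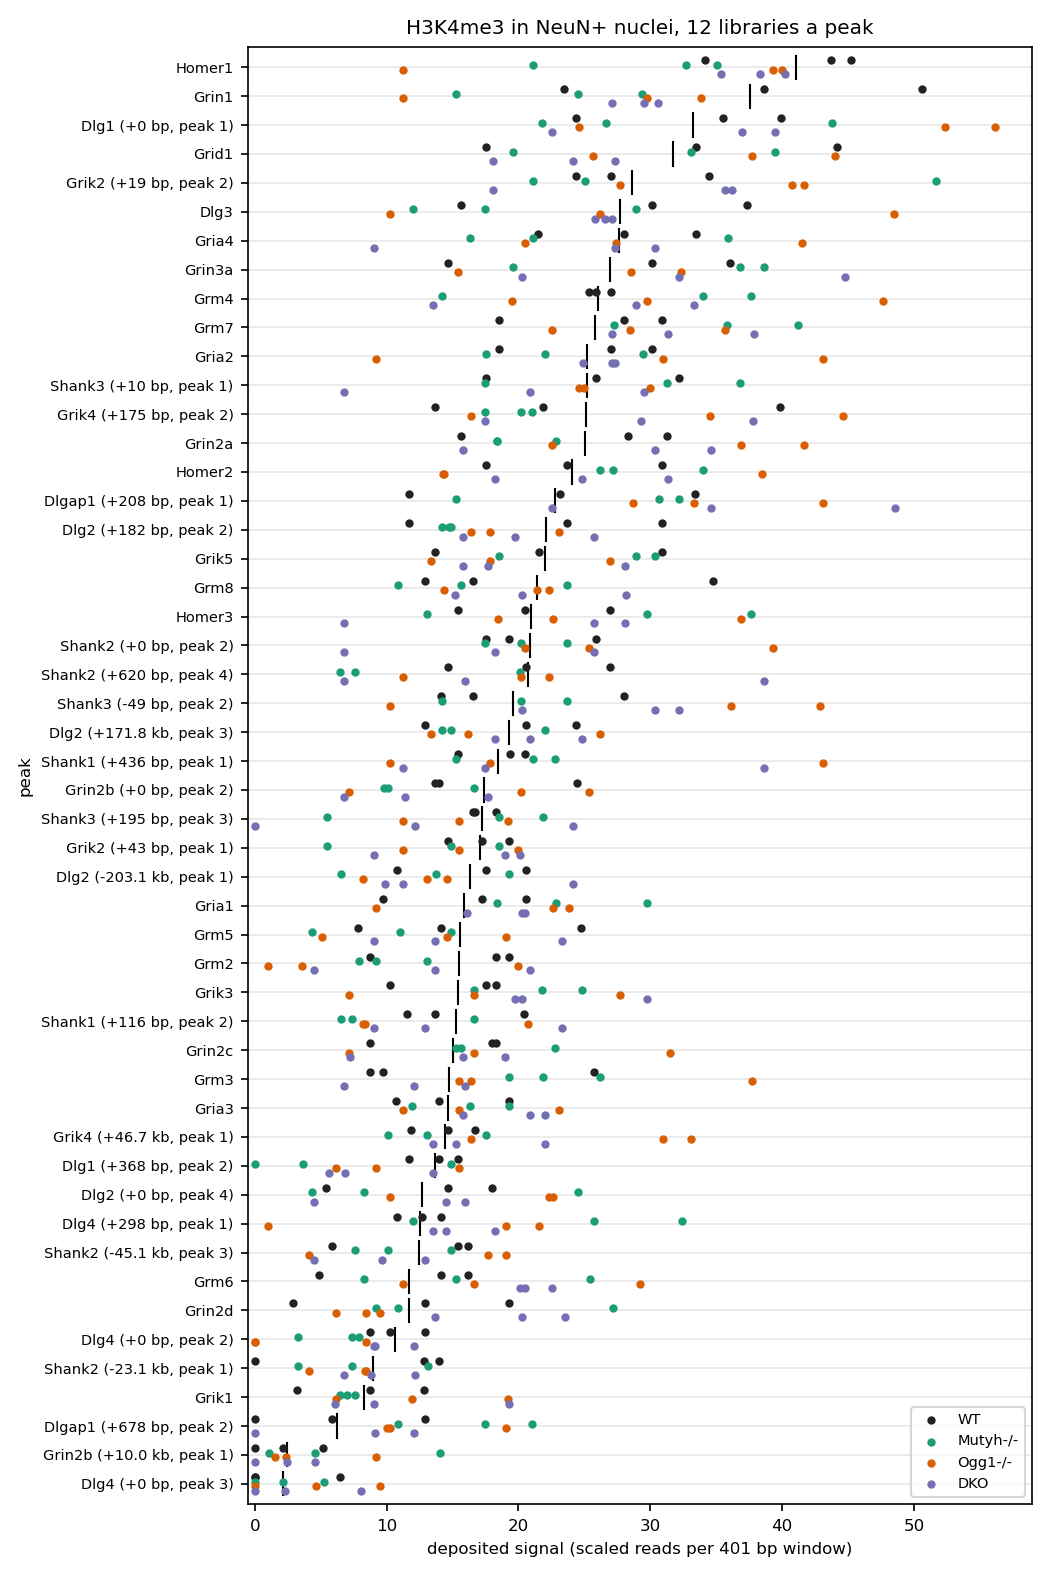
Deposited H3K4me3 signal (x axis, scaled reads per 401 bp window) of the 50 member peaks in NeuN+ (y axis, by WT mean), with 1 dot per library coloured by genotype and a black line at the WT mean; for genes with several peaks the distance to the annotated start is given. Means run from 41.0 at Homer1 to 2.14 at a Dlg4 peak, and the 4 genotypes overlap at nearly every peak.

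In NeuN- nuclei, the 6 H3K4me3 peaks were all at promoters and low. Dlg1 had 7.36 ± 1.98 (SD, n = 3), Homer1 5.39 ± 2.304, Grm3 5.07 ± 4.86, Grm7 4.93 ± 4.30, Grm4 4.87 ± 3.36 and Gria2 1.97 ± 1.72, against a median of 8.75 over all peaks of that table. Grm3 is the group II receptor known in astrocytes. Of these 6, 5 were below the 25th percentile, and 3 had a library with no read. Such a peak was present at 17.6% of the members with H3K4me3 in NeuN+, against 26.1% of all genes with it. The 11 neuronal markers had 0 peaks in that table.

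H3K27me3 was found at 10 members: Grik1, Grik3, Grin2a, Grin2b, Grin2c, Grin2d, Grm4, Grm6, Shank1 and Shank2. All 10 also had H3K4me3 in NeuN+. Among genes with H3K4me3 in NeuN+, 20.6% of the 34 members and 5.88% of 11512 genes had H3K27me3 in NeuN-, and 14.7% and 7.82% had it in NeuN+. With promoter peaks only, the shares were 20.6% and 3.87% in NeuN-, and 8.82% and 3.42% in NeuN+. Among genes over 100 kb, the shares in NeuN- were 18.2% of 22 members and 8.503% of 1870 genes, and in NeuN+ 9.09% and 11.3%. These shares are descriptions of the peak lists, with no test. With any peak counted, they were higher among genes over 100 kb than over all genes, and lower among members over 100 kb than over all members. No AMPA receptor, Dlg, Dlgap or Homer gene had H3K27me3. Of the 11 neuronal marker genes, which are not members, 5 had H3K27me3 in NeuN- and 2 in NeuN+, so H3K27me3 in NeuN- is not particular to the members.

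In NeuN+, the highest H3K27me3 among members was at the Grin2d promoter, chr7:45869820-45870220, with 14.2, 13.3 and 14.7 in WT (14.1 ± 0.7, SD, n = 3), at the 95.8th percentile of all H3K27me3 NeuN+ peaks. Its H3K4me3 peak lay 3584 bp away, at another start of the gene. Shank2 followed with 10.95, 8.86 and 8.62 at chr7:143978651-143979051, and Grm6 with 15.3, 5.54 and 6.89 at its promoter, 289 bp from the centre of its H3K4me3 peak. Grik1, a kainate receptor subunit gene, had 4 peaks, with WT means of 7.41, 4.95, 4.18 and 3.77, of which the peak of 3.77 was at the promoter. Grin2c had 2.26 ± 1.96 in an intron, and its promoter carried the only Suz12 peak, chr11:115266885-115267285, with 2.68, 20.8 and 16.1 in WT. That peak, over the 5′ UTR, holds 59 CpG. Each of the 8 H3K27me3 peaks had at least 1 of 12 libraries with no read, and the median reads per library were 2 to 11.5.

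In NeuN-, the 14 H3K27me3 peaks had WT means from 0.553 to 8.5. Grin2a had the highest, with 17.2, 8.29 and 0 in the WT libraries at chr16:9993381-9993781. The other promoter peaks included Grin2c (4.74 ± 1.66, SD, n = 3), Grm4 (4.47 ± 1.89), Grik3 (4.13 ± 1.46), Grin2b (3.20 ± 2.38) and Shank1 (1.54 ± 2.66). Shank2 had 5.08 ± 3.53 at its distal peak and 1.15 ± 2.00 and 1.92 ± 3.33 inside the gene. At these counts (median reads per library from 0 to 9.5) 11 of the 14 peaks had a library with no read. Grik3 and Grm4 had further peaks away from the promoter, 181 and 67.4 kb from the H3K4me3 peak of Grik3 and 84.2 and 96.7 kb from that of Grm4.

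**Figure D3:**
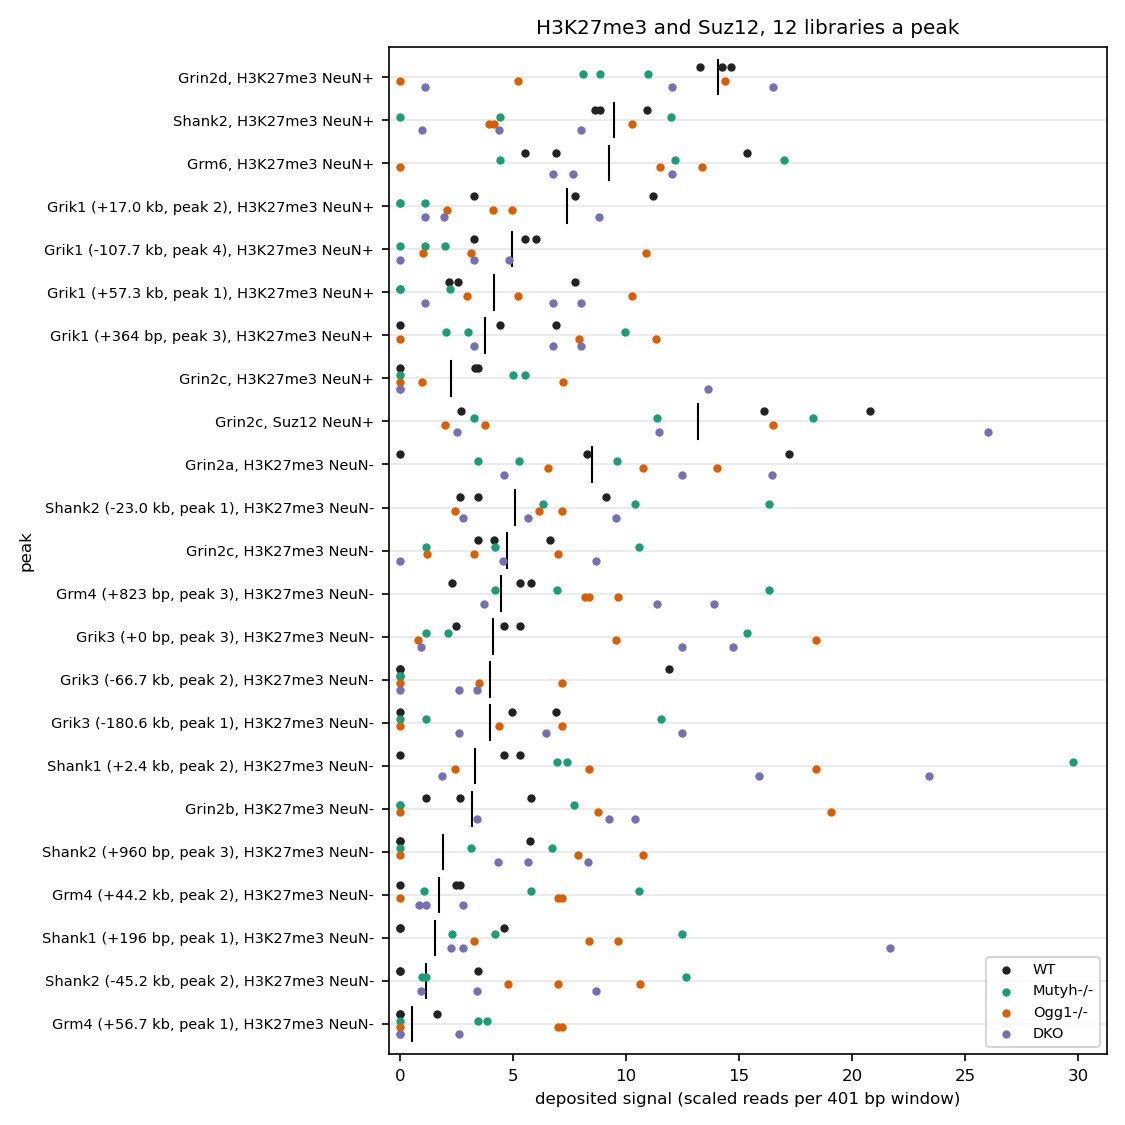
Deposited signal (x axis, scaled reads per 401 bp window) of the 8 H3K27me3 NeuN+ peaks, the Suz12 NeuN+ peak and the 14 H3K27me3 NeuN- peaks (y axis), with 1 dot per library coloured by genotype and a black line at the WT mean. Grin2d is highest in H3K27me3 NeuN+ (WT mean 14.1), and many NeuN- peaks have WT libraries at 0.

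Overlap of H3K4me3 with a Polycomb mark was limited to 4 of the 50 H3K4me3 NeuN+ peaks, by at least 1 bp: Grm6, Shank1 (chr7:44336132-44336532) and 2 peaks of Shank2. With H3K27me3 NeuN+ the share was 2 of 50 (4%) against 1.58% of all H3K4me3 NeuN+ peaks, and with H3K27me3 NeuN- 3 of 50 (6%) against 1.82%. With centres within 1000 bp, the promoters of Grik1, Grik3, Grin2b and Grm4 were added, which made 8. With peaks read in all 12 libraries of their table there were 0. That filter removed all 8 H3K27me3 NeuN+ and 11 of the 14 H3K27me3 NeuN- member peaks, so it cannot decide whether the overlaps hold. Within NeuN+ (Grm6, a Shank2 peak and, by centres, Grik1), whether both marks sat on the same nucleosomes or in different nuclei cannot be told apart. The overlaps with H3K27me3 NeuN- set marks of separately sorted nuclei side by side.

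The Shank2 peak at chr7:143978446-143978846 overlapped H3K27me3 peaks of both fractions, the only such member peak. The authors' annotation called it distal intergenic, at -23082 bp from the start of Shank2. RefSeq has a predicted Shank2 transcript starting inside it, 28 bp from its centre, and its nearest curated start is 196814 bp away. The second Shank2 overlap, chr7:144238986-144239386, was called intronic, and a predicted transcript starts 495 bp from its centre. H3K4me3 there read 15.4, 5.85 and 16.1 in WT NeuN+, and H3K27me3 0, 0 and 3.46 in WT NeuN-. Both places thus lie at starts that depend on which transcript models are used. Over all H3K27me3 NeuN- member peaks, 9 of 14 lay within 3000 bp of a RefSeq start with predicted models and 5 of 14 without.

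**Figure D4:**
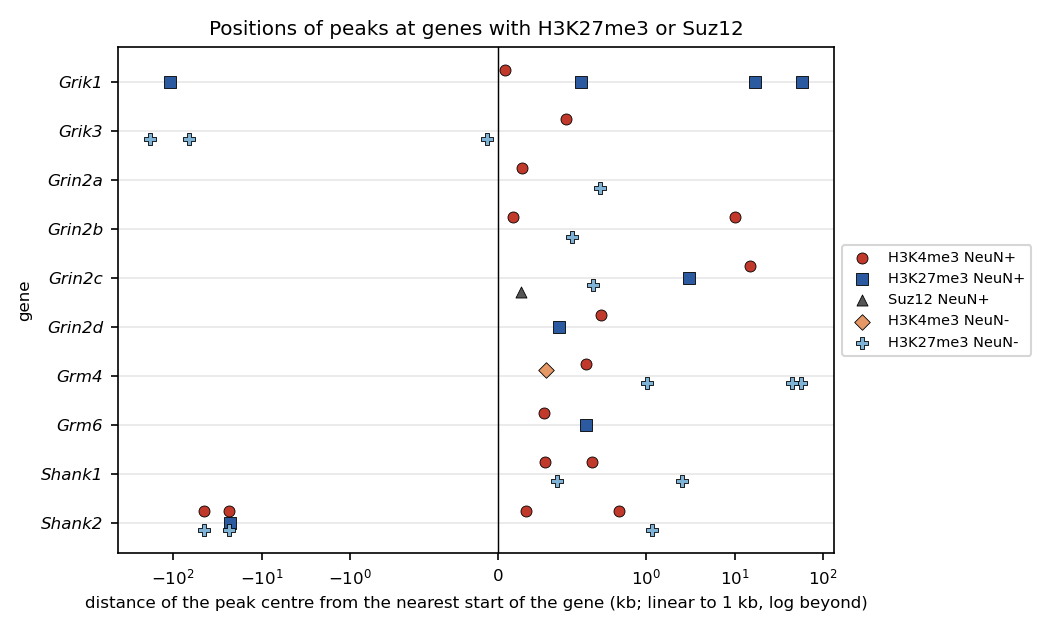
Distance of peak centres from the nearest coding start of the gene (x axis, kb, linear to 1 kb and log beyond; GENCODE M21) for the 10 genes with H3K27me3 or Suz12, 1 symbol for each mark and fraction. Each peak is measured from its own nearest start, so peaks side by side here can lie apart, as at Grin2d (3584 bp). Between centres, a H3K27me3 peak lay within 1000 bp of H3K4me3 NeuN+ at Shank1, Shank2, Grm6, Grm4, Grik3, Grin2b and Grik1. Other H3K27me3 peaks of Shank1, Shank2, Grm4, Grik3 and Grik1 lay 17.0 to 423.5 kb from it.

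Each knockout was then compared with WT. A peak counted as a differentially enriched region (DER) when limma, fitted to the 12 libraries of its table, gave a log2 fold change beyond 0.5 in either direction on the log2(signal + 1) scale and a p, before adjustment, under 0.05. The 3 comparisons share the WT libraries. Among 237 tests of member peaks there were 6 DERs, 2 higher and 4 lower than in WT. None of the 237 had an adjusted p under 0.05 (limma, Benjamini-Hochberg over all peaks of a contrast). The smallest adjusted p by limma was 0.915 over all 237 tests, at a peak that was not a DER, and 0.963 over the 6 DERs. Over all peaks, the share of DERs in the 15 comparisons ran from 0.911% to 5.16%, and it is given with each comparison below. Over the 5 tables, 0.0222% of all tests had an adjusted p under 0.05.

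In H3K4me3 NeuN+, 2 of 50 member peaks were DERs for Mutyh-/- (0.911% of all peaks), 1 for Ogg1-/- (0.966%) and 0 for DKO (1.46%). The median half-width of the 95% interval of a fold change was 1.03 on the log2 scale. All 3 DERs were weak or secondary promoter peaks, among the lowest 25% of the table by mean signal.

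At the Dlg4 promoter peak chr11:70023920-70024320, which holds a RefSeq transcript start of the gene, the signal was 10.3, 8.78 and 12.9 in WT and 0, 0 and 8.46 in Ogg1-/-. It was 3.27, 7.35 and 7.88 in Mutyh-/- and 9.02, 12.1 and 9.10 in DKO. The Ogg1-/- libraries lay below all WT libraries (3.68% of all peaks did not overlap WT there), and the log2 fold change was -2.45 (SE 0.90, adjusted p = 0.9998 by limma). Mutyh-/- lay below WT as well (5.77% of all peaks did not overlap; -0.76, SE 0.90), and DKO overlapped WT (-0.07, SE 0.90). The other 2 Dlg4 peaks gave -0.47 (SE 0.68) and 1.00 (SE 1.34) for Ogg1-/-, neither a DER. Without Ogg1-/- replicate 1 the fold change was -1.91 and no longer passed.

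At the second Dlg1 promoter, chr16:31754718-31755118, the signal was 15.4, 11.7 and 14.0 in WT and 0, 3.67 and 14.9 in Mutyh-/-. One Mutyh-/- library overlapped WT, and the log2 fold change was -1.80 (SE 0.82, adjusted p = 0.9998 by limma). Without Mutyh-/- replicate 1 it was -0.76, and leaving out any WT library or Mutyh-/- replicate 2 also ended the call, as did edgeR and DESeq2. The main Dlg1 promoter gave -0.14 (SE 0.40).
At the second Dlgap1 promoter, chr17:70522840-70523240, the signal was 0, 5.85 and 12.9 in WT and 10.9, 17.5 and 21.02 in Mutyh-/-. The groups overlapped, and the log2 fold change was 1.89 (SE 0.92, adjusted p = 0.9998 by limma). Ogg1-/- read 19.0, 10.3 and 10.0 there (1.57, SE 0.92) and DKO 0, 12.1 and 9.10 (0.16, SE 0.92). Without WT replicate 1 the Mutyh-/- fold change was 0.79, and leaving out any Mutyh-/- or Ogg1-/- library, a pseudocount of 0.5 or TMM scaling also ended the call. This is the member peak with no CpG. For DKO the smallest p was at a Shank3 promoter, chr15:89533085-89533485, with 16.7, 16.6 and 18.3 in WT and 0, 24.1 and 12.1 in DKO (-1.40, SE 0.78, adjusted p = 0.9999 by limma).

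The Homer1 and Grin1 promoters, the highest of the members, were not DERs. Homer1 read 32.7, 21.1 and 35.04 in Mutyh-/-, 39.3, 11.3 and 39.99 in Ogg1-/- and 38.3, 35.4 and 40.2 in DKO, which are log2 fold changes of -0.48, -0.61 and -0.10 (SE 0.42). Grin1 read 15.3, 29.4 and 24.5 in Mutyh-/-, 29.8, 11.3 and 33.8 in Ogg1-/- and 27.1, 30.6 and 29.6 in DKO. The fold changes were -0.66, -0.64 and -0.29 (SE 0.43), with 95% intervals from -1.54 to 0.22, from -1.52 to 0.24 and from -1.18 to 0.59, and all groups overlapped WT. Grin1 had no H3K27me3 or Suz12 peak in either fraction.

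In H3K27me3 NeuN+, 1 of 8 member peaks was a DER for Mutyh-/- (3.78% of all peaks), 1 for Ogg1-/- (3.82%) and 0 for DKO (3.36%). At the Grik1 intron peak chr16:87906461-87906861 the signal was 3.29, 7.75 and 11.2 in WT and 0, 1.11 and 0 in Mutyh-/-. All Mutyh-/- libraries were below WT, as at 3 of the 8 peaks (9.15% of all peaks did not overlap), and the log2 fold change was -2.59 (SE 1.07, adjusted p = 0.9981 by limma). Without WT replicate 3 it was -2.26 and no longer passed. The 2 other Grik1 peaks away from the promoter gave -1.65 (SE 1.05) and -1.65 (SE 1.07), and the promoter peak 0.54 (SE 0.98), none a DER. At the Grin2d promoter the signal was 14.2, 13.3 and 14.7 in WT and 0, 5.23 and 14.4 in Ogg1-/-, where the groups overlapped (-1.72, SE 0.79, adjusted p = 0.983 by limma). Without Ogg1-/- replicate 1 it was -0.62, and leaving out any WT library, a pseudocount of 5, edgeR or DESeq2 also ended the call. Mutyh-/- read 8.11, 8.85 and 10.99 there, all below WT, with -0.55 (SE 0.79), and DKO 1.09, 16.5 and 12.0. Over the 8 peaks the median log2 fold change was -0.94, -0.49 and -0.54 for Mutyh-/-, Ogg1-/- and DKO, against -0.21, -0.11 and -0.01 over all peaks, a description with no test. In this table the repeat peak took 46.9% of the reads of Mutyh-/- replicate 1 and 27.9% of those of DKO replicate 1, where the summed member signal was 22.3 and 21.9, against 49.3 to 60.3 in WT with shares of 0.236% to 8.504%. It took 0% in Mutyh-/- replicate 2 and DKO replicate 2 and 0.468% in Ogg1-/- replicate 2, where the sums were 37.6, 39.7 and 31.4, also below WT, and 16.5% in Ogg1-/- replicate 1, with a sum of 31.7. In replicate 3 of Mutyh-/-, Ogg1-/- and DKO the sums were 49.96, 71.9 and 75.4, with shares of 0%, 0% and 6.49%. The part of that share in these values was not tested.

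For Suz12 NeuN+, Grin2c read 3.28, 11.4 and 18.3 in Mutyh-/-, 1.98, 16.5 and 3.76 in Ogg1-/- and 2.55, 11.5 and 25.99 in DKO. Replicate 1 was the lowest library of each genotype, with 2.68 in WT. All knockouts overlapped WT, and the peak was not a DER in any knockout, where 5.16%, 3.74% and 2.58% of all peaks were. Its smallest p was for Ogg1-/- (-0.82, SE 1.13, adjusted p = 0.915 by limma).

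In H3K4me3 NeuN-, 0 of 6 member peaks were DERs in any knockout (2.94%, 3.36% and 2.29% of all peaks). The smallest p was at Grm4, with 8.30, 1.58 and 4.73 in WT and 11.9, 11.2 and 15.6 in Ogg1-/-, which did not overlap, as for 8.29% of all peaks (1.42, SE 0.87, adjusted p = 0.9994 by limma). Grm7 had no H3K27me3 or Suz12 peak. Its H3K4me3 in NeuN- read 6.91, 7.88 and 0 in WT, 5.71, 3.46 and 3.25 in Mutyh-/-, 0, 3.99 and 2.84 in Ogg1-/- and 6.5, 5.004 and 3.35 in DKO, with fold changes of 0.28, -0.62 and 0.49 (SE 1.11). In NeuN+ it read 30.9, 18.5 and 28 in WT and gave 0.43, 0.17 and 0.32 (SE 0.38). Grm7 lies 1.76 Mb from Ogg1 on chromosome 6.

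In H3K27me3 NeuN-, 0 of 14 member peaks were DERs for Mutyh-/- (2% of all peaks), 1 for Ogg1-/- (4.18%) and 0 for DKO (2.3%). The DER was the intronic Shank2 peak chr7:144238812-144239212, with 0, 0 and 3.46 in WT and 7.01, 10.6 and 4.77 in Ogg1-/-. The groups did not overlap, as at 2 of the 14 member peaks (9.78% of all peaks), and the log2 fold change was 2.3 (SE 1.16, adjusted p = 0.963 by limma). The call was lost without WT replicates 1 or 2, any Ogg1-/- library or DKO replicate 3, and with edgeR, DESeq2, a pseudocount of 5 or the 6 libraries alone. Mutyh-/- read 0.961, 12.7 and 1.16 there and DKO 8.67, 0.925 and 3.41. The 2 Shank1 peaks gave fold changes from 1.38 to 2.08 in the 3 knockouts, with SE of 1.11 to 1.15, and none was a DER. Of the 14 peaks, 9, 12 and 13 had a fold change above 0 for Mutyh-/-, Ogg1-/- and DKO, against 61.2%, 73.5% and 67.4% of all peaks. The median was 0.77, 0.84 and 0.92 against 0.29, 0.58 and 0.41 over all peaks, and with TMM scaling 0.57, 0.44 and 0.74 against 0.12, 0.24 and 0.20. With TMM scaling 9, 11 and 10 of the 14 peaks were above 0, against 54.4%, 59.2% and 58.2% of all peaks. The summed member signal was 59.6, 44.8 and 40.4 in WT. It was 117 to 152 in 4 libraries (Mutyh-/- replicate 1, Ogg1-/- replicates 1 and 3, and DKO replicate 1), in which the repeat peak took 20.6% to 46.3% of the reads, and 37.6 to 94.3 in the other 8, in which it took 53.5% to 73.0%. The part of the repeat share in these fold changes was not tested.

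**Figure D5:**
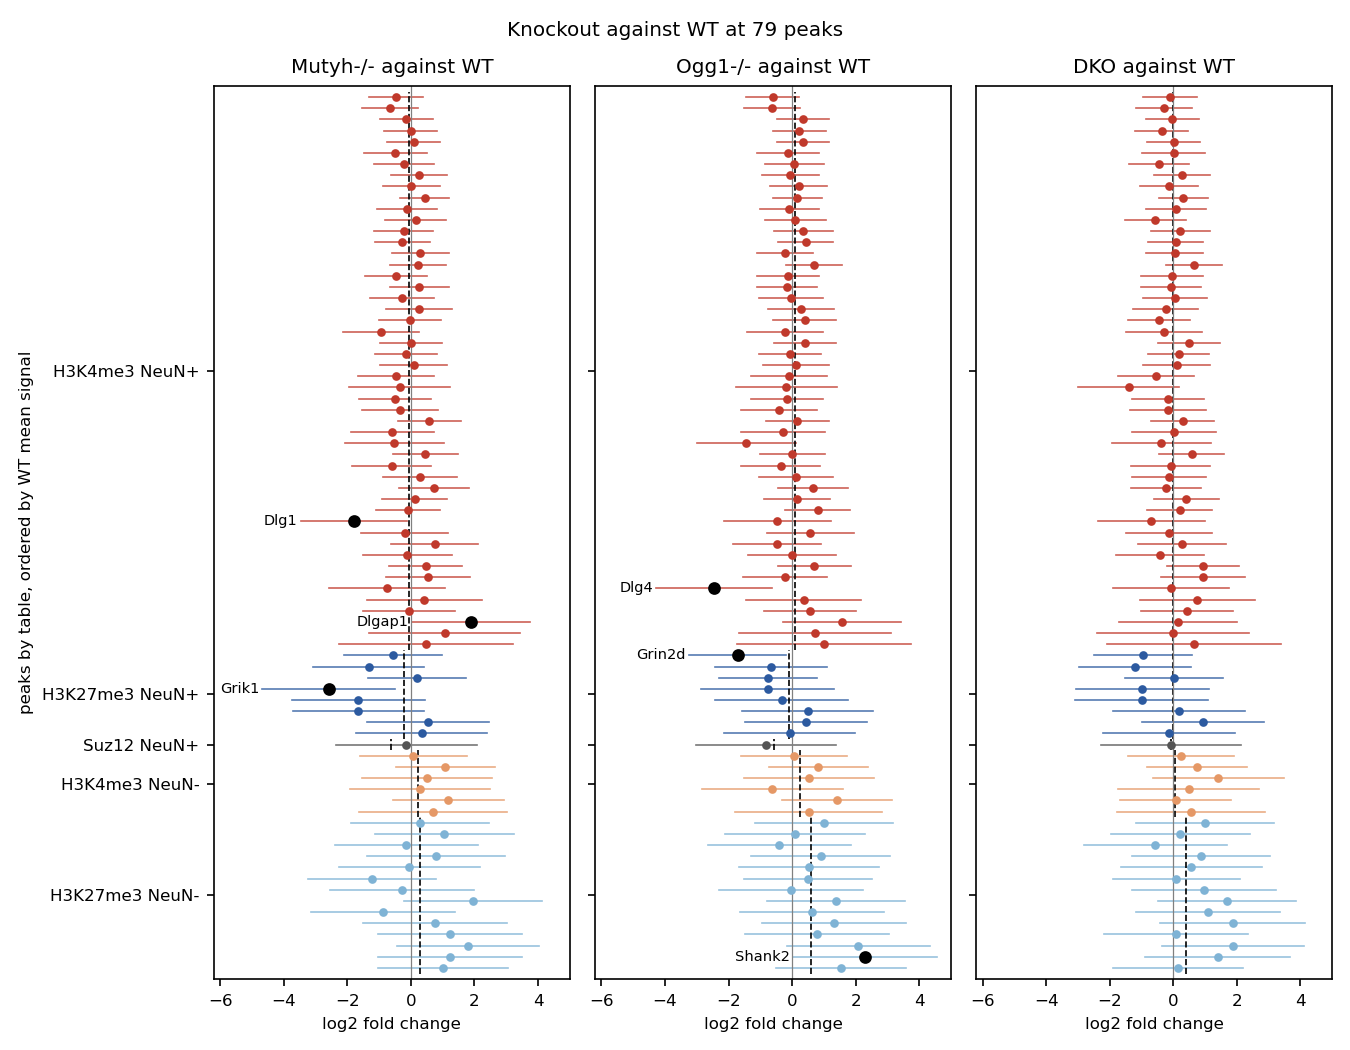
Log2 fold change against WT (x axis, log2(signal + 1) scale) with its 95% interval for the 79 member peaks (y axis, grouped by table and ordered by WT mean signal) in each knockout; large black dots are the 6 DERs, and dashed lines are the median of all peaks of the table. Most intervals include 0, and the H3K27me3 NeuN- dots lie to the right of 0 at 13 of 14 peaks for DKO, as does the median of all peaks of that table.

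The DKO was also set against the sum of the single knockouts (DKO minus Ogg1-/- minus Mutyh-/- plus WT). In H3K4me3 NeuN+, 3 of 50 member peaks had an unadjusted p under 0.05, against 0.839% of all peaks: the Dlgap1 peak without CpG (-3.30, adjusted p = 0.9996 by limma), the same Dlg4 promoter (3.13, adjusted p = 0.9996 by limma) and Grm3 (-1.62, adjusted p = 0.9996 by limma). Grm3 read 25.7, 8.78 and 9.69 in WT, 26.2, 19.3 and 21.9 in Mutyh-/-, 15.5, 16.4 and 37.7 in Ogg1-/- and 6.77, 12.1 and 15.9 in DKO. Dlg4 and Dlgap1 were already DERs of a single knockout, and this contrast uses the same libraries. In H3K4me3 NeuN- it was 1 of 6, Grm4 (-2.50, adjusted p = 0.994 by limma), against 3.03%. There were 0 in the other 3 tables with member peaks, against 3.92%, 5.16% and 2.47% of all peaks. No member passed with an adjusted p, as did 0.0178% of all peaks.

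The effect of a knockout was compared between fractions where a peak overlapped 1 to 1. For H3K4me3 this was possible at 5 member promoters (Homer1, Dlg1, Grm4, Grm3 and Grm7) of 3000 pairs, and for H3K27me3 at the distal Shank2 peak of 249 pairs. No member difference had an unadjusted p under 0.05, against 1.97% and 1.74% of all tests, and 0% had an adjusted p under 0.05. The nearest for H3K4me3 was Homer1 in Mutyh-/-, -0.48 (SE 0.416) in NeuN+ and 1.08 (SE 0.781) in NeuN- (difference -1.56, SE 0.779, adjusted p = 0.9989 by limma). For H3K27me3 it was Shank2 in Mutyh-/-, -1.34 (SE 0.90) and 1.05 (SE 1.12), with a difference of -2.38 (SE 1.2, adjusted p = 0.988 by limma). The fit gave each peak 1 spread for the libraries of both fractions and did not pair the fractions of a replicate. The SE of the Homer1 difference was below that of its NeuN- part alone, so these SEs may be too small.

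Other genes of the glutamate synapse were read from a list of 48, which holds AMPA and kainate receptor auxiliary subunits, adhesion molecules, signalling and scaffold genes, and glutamate transporters and enzymes. Of these, 44 had H3K4me3 in NeuN+, 3 H3K27me3 in NeuN+ and 12 H3K27me3 in NeuN-, which included 5 of 12 AMPA receptor auxiliary subunit genes. Of their 85 peaks, 84 were in the 5 tables that hold member peaks, and of 252 tests there 1 was a DER, lower in Mutyh-/- and in H3K4me3 NeuN+ (0.911% of all peaks in that comparison). It was the promoter of Cnih3, an AMPA receptor auxiliary subunit gene, with 33.6 ± 1.73 in WT and 16.9 ± 3.504 in Mutyh-/- (SD, n = 3), a log2 fold change of -0.97 (SE 0.46, adjusted p = 0.9998 by limma).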

How the data were processed

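Nuclei of pooled hippocampi were sorted on NeuN, and chromatin was immunoprecipitated for H3K4me3, H3K27me3 or Suz12. The authors aligned reads with Bowtie2 2.3.5.1 to GRCm38, called enriched regions with epic2 (SICER in the submitters' processing notes), kept regions found in at least 2 of 3 replicates, counted them with DiffBind 3.10.1 and annotated them with ChIPseeker 1.36. The deposited values are signal, reads in windows of 401 bp multiplied by 1 factor for each library. All values were whole multiples of the value of 1 read (tolerance 0.01), so the reads could be recovered. Input libraries were not used.

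Peaks were assigned to genes by the deposited gene symbol. The members and lists were chosen with earlier results of these data known. limma 3.58.1 (R 4.3.3) was fitted with a trend to log2(signal + 1) of all peaks and the 12 libraries of a table, with p-values adjusted by Benjamini-Hochberg over all peaks of a contrast. DERs followed the thresholds of the study, a p under 0.05 before adjustment and a log2 fold change beyond 0.5 either way. Since each replicate was a pool, p-values rest on the spread between pools, which limma shares between peaks of similar signal. In the H3K27me3 and Suz12 tables the prior degrees of freedom were infinite. There the spread of a peak was that of the trend over the table, and not that of its own libraries. In H3K4me3 the prior had 24.9 (NeuN+) and 58.3 (NeuN-) degrees of freedom, against 8 from the libraries of a peak. Named peaks were each member DER (up to 6 for a table and knockout) or else the smallest p of the table, Grin1 and Grm7 (which the study discusses), the 3 highest and 3 lowest WT levels of each mark in NeuN+, and members with at least 2 marks in NeuN+. The alternatives were pseudocounts of 0.5 and 5, no peaks of the lowest 25%, TMM scaling, edgeR 4.0.16 and DESeq2 1.42.0 on recovered reads, robust estimation, 6 libraries, a replicate block and leaving out each library. Transcript starts came from GENCODE M21 and RefSeq, and sequence from GRCm38 (pysam 0.24.0). In Suz12 NeuN+, same-numbered libraries of Mutyh-/- and WT deviated together (r = 0.388, 0.186 and 0.119 across peaks), a hint from the data and not from the labels. With WT, Ogg1-/- gave 0.285, 0.226 and 0.0714 there and DKO 0.213, 0.177 and 0.0396. In the other tables r was at most 0.153. One sequence is not reported here.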

Additional observations from a re-analysis of the deposited data

How the results depend on the processing

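The number of member DERs depended on the processing in 3 of the 5 tables with member peaks. The share of all peaks called under these other fits is not given here. Whether members moved more than other peaks therefore cannot be read from these counts. In H3K4me3 NeuN+ the 3 DERs became 0 without the lowest 25% of peaks, where none of these 3 peaks was tested, 8 with TMM scaling and 7 with edgeR, and leaving out a library gave 1 to 6 (1 without WT replicate 1, Mutyh-/- replicates 1 or 2 or Ogg1-/- replicate 1, and 6 without DKO replicate 1). In H3K27me3 NeuN+ the 2 DERs became 1 with a pseudocount of 5, edgeR or DESeq2, and 0 to 3 on leaving out a library (0 without WT replicate 3). In H3K27me3 NeuN- the 1 DER became 0 with a pseudocount of 5 or the 6 libraries alone, 3 with the replicate block and 2 with TMM scaling or DESeq2, and 0 to 5 on leaving out a library (5 without WT replicate 3). With the replicate block the count was 3 in H3K4me3 NeuN+, 2 in H3K27me3 NeuN+ and 0 in the other 3 tables. Suz12 NeuN+, with 1 member peak, and H3K4me3 NeuN- stayed at 0 in every fit run, as did the adjusted counts of non-additive effects and of differences between fractions. Suz12 NeuN- held no member peak, so its count could only be 0. The 4 overlaps of H3K4me3 with a Polycomb mark became 8 with centres within 1000 bp. They became 0 with peaks read in all 12 libraries, a filter that removed all H3K27me3 NeuN+ and most H3K27me3 NeuN- member peaks. Of the named peaks, Grm7 H3K4me3 NeuN- in Ogg1-/- turned from -0.62 to 0.085 without Ogg1-/- replicate 1, and leaving out a library gave -1.65 to 0.085. Grin1 in Mutyh-/- passed with edgeR and without WT replicate 2 (-0.96). The causes were not tested. Depth limits all tables, with a median of 2.5 to 34.5 reads per library at a member peak of H3K4me3 NeuN+ and of 0 to 11.5 in the other tables.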
